A study of Drosophila melanogaster with 150 samples.

Results

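The 47 odorant binding protein genes described here are those whose array symbol begins with Obp followed by a number, out of 11981 genes with a symbol of their own on the array. They were measured in 150 pools of whole adult male Drosophila melanogaster from 75 recombinant inbred lines, called roo lines. Each line has an Affymetrix array labelled control, from flies reared on food with 250 uM sodium acetate, and an array labelled lead, from flies reared on food with 250 uM lead acetate. Every array holds RNA of males 5 to 10 days old from a pool of 65 collected from a vial, and no group shares a transgene or a named mutation in the labels. A vial is a single pool, so the spread within a line and diet was not measured. Fewer cells of a type and less RNA per cell cannot be told apart in whole-fly RNA.

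The 47 genes were covered by 50 probe sets. Obp19a, Obp19c and Obp59a had 2 probe sets each, and the probe set of higher mean stands for the gene. A further 4 probe sets carried an Obp symbol together with another symbol and were left out, since their signal cannot be assigned to 1 gene. A RefSeq gene table of assembly Release 6 plus ISO1 MT lists 51 symbols of this form. It places 26 of the 47 genes on arm 2R, 11 on 3R, 6 on X, 2 on 2L and 2 on 3L. The gene lush also encodes an odorant binding protein, but its symbol keeps it outside the rule, and its values are given for comparison.

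Odorant binding proteins are small secreted proteins held together by disulfide bridges. In the antenna, support cells release them into the fluid around the dendrites of olfactory neurons, where they bind odorants and pheromones. Members of the family are also made in taste hairs, glia, fat body and the male reproductive tract, so whole-male RNA mixes several sources. Their names carry the cytological division of the polytene chromosome, and genes with the same number lie in the same chromosomal neighbourhood.

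Values are deposited signals read here as a log2 scale, on which a difference of 1 is a doubling. Array medians lay between 5.29 and 5.55, and each array correlated with the rest at a median r of 0.954 or more. The 2 arrays of a labelled line resembled each other little, since their deviations correlated at a mean of 0.0668, against 0.0005 for arrays of different lines. That correlation exceeded 0.1 in 45.3% of own-line pairs and in 34.5% of other pairs. Groups are therefore named by their labels, as labelled control and labelled lead. As a check of the labelled sex, the mean signal over 12 accessory gland genes lay between 10.27 and 11.86 on every array. The 10 chorion and vitelline membrane genes, which females use to build eggshell, had gene means over arrays from 2.8 to 4.88. On single arrays, however, the mean over a list of 18 yolk and eggshell genes ran from 3.4 to 9.11. The gene means therefore cannot show that each array lacked female RNA. Signals of different probe sets are not amounts, because probe sets differ in how strongly they bind, and the number of arrays limits the precision.

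The family spanned most of the range of the array. Of the 47 genes, 23 had a mean signal of 5 or more, 4 lay between 4 and 5, and 20 were under 4. The 20 genes under 4 were also under 3.82, the median of the eggshell gene means on these arrays, and 24 of the 47 were under the highest eggshell gene. The SD over arrays was 0.5 or more in 16 of the 23 genes of signal 5 and over, in 2 of the 4 between 4 and 5, and in 0 of the 20 under 4.

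**Figure D1:**
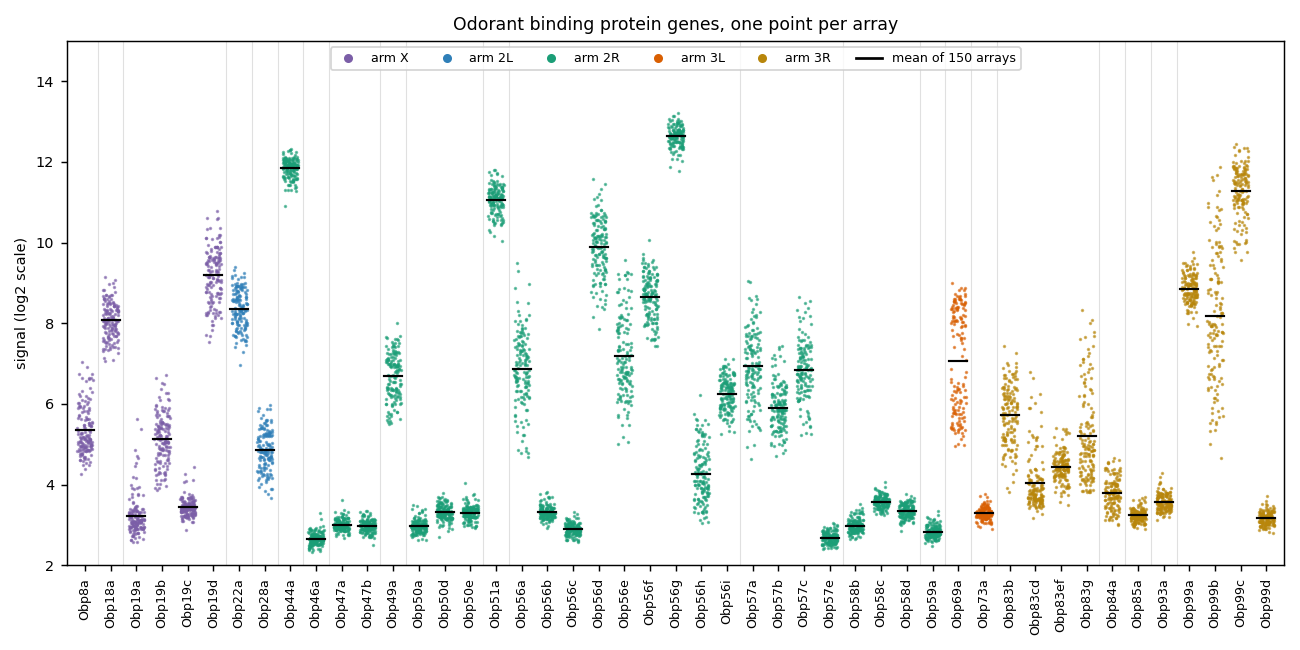
Signal of the 47 odorant binding protein genes (vertical axis, log2 scale) on each of 150 arrays, ordered by cytological division (horizontal axis). Each point is an array, black bars are means, and colours mark the chromosome arm. Obp56g has the highest mean at 12.63, Obp46a the lowest at 2.66, and Obp69a splits into 2 clouds of points.

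The largest neighbourhood was division 56 on 2R, with 9 genes whose means ran from 2.90 to 12.63. Obp56g, a seminal fluid protein needed for the mating plug, was the brightest member of the family at 12.63 ± 0.25 (SD, n = 150), with arrays from 11.77 to 13.22. Obp56d, which is made in antennae and taste organs, reached 9.88 ± 0.72, and the seminal fluid gene Obp56f reached 8.65 ± 0.55. Obp56e, also a seminal fluid gene, ran from 5.00 to 9.56 around a mean of 7.18, with an SD of 0.99. Obp56a ran from 4.69 to 9.49 with an SD of 0.91. Obp56i had a mean of 6.25, Obp56h, whose knockdown in flies alters mating behaviour, had 4.27, and Obp56b and Obp56c stayed at 3.32 and 2.90. Genes of this division therefore lay at both ends of the family's range.

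Division 57 held 4 genes. Obp57a at 6.93 ± 0.87, Obp57b at 5.91 ± 0.56 and Obp57c at 6.85 ± 0.69 (SD, n = 150) were spread over the arrays. Obp57e, which in flies affects taste-driven choice of egg-laying sites, lay between 2.40 and 3.06 on all arrays, with a mean of 2.68. Division 99 on 3R held Obp99c at 11.28 ± 0.62, Obp99a at 8.86 ± 0.34, Obp99b at 8.18 ± 1.62 and Obp99d at 3.17 ± 0.16. Obp99b, a gene of the male fat body under sex-specific control, had the largest SD of the family. It ran from 4.66 to 11.87, a range of 7.21, and 99.8% of the probe sets on the array had a lower SD.

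Division 83 held 4 genes of middling signal. Obp83b, an antennal protein of pheromone-sensing hairs, was at 5.73 ± 0.74 (SD, n = 150). Obp83g had a mean of 5.21 and an SD of 1.10, with a median of 4.90 and a highest array of 8.33, so its high values were a minority. Obp83cd, at 4.03 ± 0.69, had the same skew, from 3.17 through a median of 3.78 to 6.80. Obp83ef was steadier at 4.44 ± 0.36. Division 19 on X held the antennal gene Obp19d at 9.18 ± 0.67, Obp19b at 5.14 ± 0.61, and Obp19c and Obp19a at 3.44 and 3.23. Obp19a had a median of 3.11, but its highest array reached 5.63, and its other probe set followed it with r = 0.72. The other probe sets of Obp19c and Obp59a had means of 2.75 and 2.31 and correlations with the main probe set of 0.02 and -0.14, so these pairs of probe sets did not follow each other.

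Divisions 58, 50 and 47 held 8 genes in all, and each had a mean between 2.98 and 3.58 with an SD of at most 0.18. The remaining genes stand alone in their division. Obp44a, which is made in glia, reached 11.84 ± 0.24 (SD, n = 150) and the seminal fluid gene Obp51a reached 11.06 ± 0.34. Obp22a, another seminal fluid gene, was at 8.36 ± 0.48, Obp18a at 8.07 ± 0.44 and Obp69a at 7.07 ± 1.27. Obp49a, a taste protein through which bitter compounds dampen the sweet response, was at 6.68 ± 0.57. Obp8a was at 5.34 ± 0.59 and Obp28a, an abundant antennal protein, at 4.86 ± 0.49. The antennal gene Obp84a was at 3.78 ± 0.37, Obp93a at 3.56, Obp73a at 3.29 and Obp85a at 3.24. Obp59a, which is needed for sensing humidity, was at 2.84, and Obp46a was lowest at 2.66.

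Grouped by known site, the 7 members of a list of male reproductive tract odorant binding proteins had means from 5.34 to 12.63, with a median of 8.36. A list of 9 antennal members had 8 on the array, with means from 2.84 to 9.88 and a median of 5.29. Other olfactory genes differed in level. Os-C and a10, of the antenna, were at 5.67 and 4.93. The pheromone-binding protein lush was at 4.47 ± 0.39 and the olfactory co-receptor Orco at 3.59 ± 0.17 (SD, n = 150), and the odorant receptors Or67d, Or22a, Or42b, Or47b and Or65a had means from 2.53 to 3.18.

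The first comparison of the design asks which genes differed between flies reared on lead and on control food. No odorant binding protein gene passed the test between the labelled diets. Arrays of a labelled line resembled each other little, at a mean r of 0.0668. Whether labels and arrays match was not tested, so the result holds for the labels as given. Of the 47 genes, 0 passed an adjusted p of 0.05 in limma with line as a block, against 0.0% of all 18769 probe sets. Without adjustment 5 of 47 had a p under 0.05, which is 10.6%, against 2.61% of all probe sets, and each had an adjusted p of 1.0. The whole 95% interval of the difference lay within 0.25 of 0 for 32 of the 47 genes and within 0.5 for 44. Over all probe sets 94.0% lay within 0.25, so the family was less tightly bounded than the array.

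Of the 5, Obp49a, Obp56a, Obp19d and Obp57c had lower means on the lead arrays and Obp19c a higher mean. Among the 75 control arrays Obp49a ran from 5.51 through a median of 6.91 to 8.01, and among the 75 lead arrays from 5.54 through 6.50 to 7.69. The ranges overlapped almost wholly. Its difference was -0.25 ± 0.09 (SE, 95% interval -0.43 to -0.08, unadjusted p = 0.006 in limma), and the lead array was the higher in 27 of the 75 lines. Obp56a differed by -0.32 ± 0.14 (unadjusted p = 0.0204, higher in 29 lines), and Obp19d by -0.22 ± 0.10 (unadjusted p = 0.0318, higher in 34 lines). The members of smallest p in the other direction were dim. Obp19c differed by 0.08 ± 0.03 (unadjusted p = 0.0136, higher in 44 lines), Obp46a by 0.04 ± 0.02 and Obp59a by 0.03 ± 0.03. None of these 6 passed the threshold. Among 26 other chemosensory genes measured from a list of 29, 0 passed.

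The second question is whether inbred lines kept their level across the diets. No odorant binding protein gene passed limma's F-test of the line terms, where 0.0107% of all probe sets did. As for diet, the result holds for the labels as given. Without adjustment 9 of 47 had a p under 0.05, which is 19.1%, against 12.3% of all probe sets. Obp56e had the smallest p, 0.000394, with an adjusted p of 0.217. Its values on the control and the lead array of a line correlated over 75 lines with r = 0.358 and rho = 0.321. Next came Obp84a with r = 0.276, Obp19c with r = 0.277, Obp56i with r = 0.248 and Obp58b with r = 0.273, at adjusted p in limma of 0.288, 0.304, 0.304 and 0.306. These r are the size of the line effect and were not tested apart from the F-test.

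Obp69a, an antennal protein of 3L linked in flies to social behaviour, took 2 levels. On 73 arrays its signal lay between 4.97 and 6.87, with a mean of 5.85 ± 0.46 (SD), and on 77 arrays between 7.10 and 8.99, with a mean of 8.23 ± 0.42. No array fell in the gap of 0.227 between them. The means of the levels differed by 2.39, which is 5.42 times the SD within a level. The split was placed at the widest gap that leaves at least 10 arrays on each side, so it is a description. Obp99b had a wider gap, of 0.253 between 131 and 19 arrays, but its sides were 3.17 SD apart, and no other member's sides were more than 4.10 SD apart. Obp69a has a single probe set here, so no other probe set bears on its levels.

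The levels did not follow the labels. At the high level were 42 arrays labelled lead and 35 labelled control, and at the low level 33 and 40 (Fisher's exact test, 2-sided, p = 0.327). Both arrays of a line were high in 19 lines and low in 17. The control array was high and the lead array low in 16 lines, and the reverse held in 23. The level thus matched within 36 lines and differed within 39, and no association between the levels on the 2 arrays of a labelled line was detected (Fisher's exact test, 2-sided, p = 0.819). The Pearson r between the paired values of a line was -0.01, which is given as a description because the values fall into 2 clusters.

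**Figure D2:**
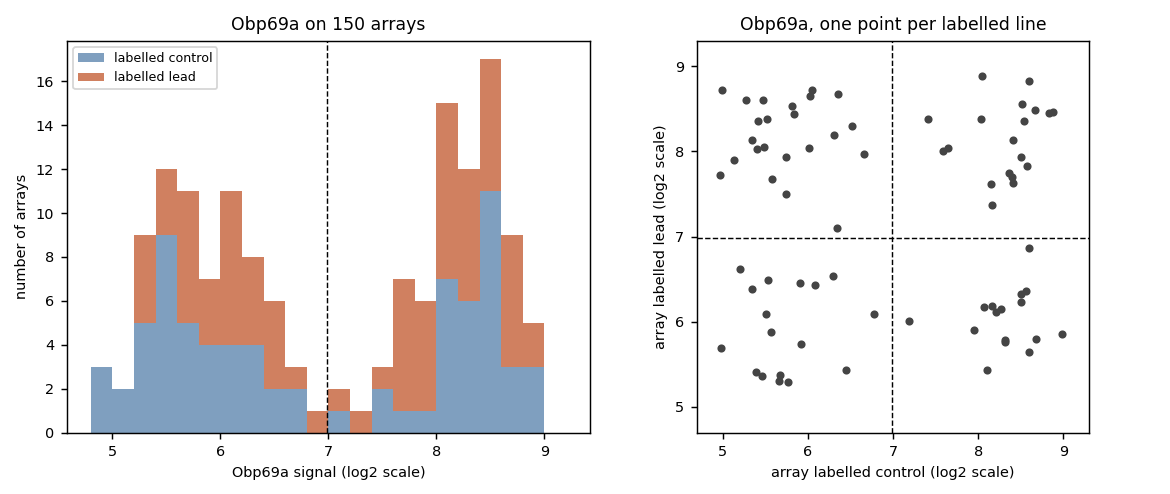
Left, numbers of arrays (vertical axis) by Obp69a signal (horizontal axis, log2 scale), stacked by labelled diet, with the split between the levels as a dashed line. Right, Obp69a on the control array (horizontal axis) and the lead array (vertical axis) of each of the 75 labelled lines, with 19 lines high on both, 17 low on both, 23 high only on the lead array and 16 high only on the control array.

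The genes whose signal was most like that of Obp69a lay beside it on the chromosome. By absolute Pearson r over the 150 arrays the 10 most alike named genes were all on 3L, between 1 and 119 protein-coding genes away in the order of the RefSeq table. Since Obp69a falls into 2 clusters, these r rank the genes and are not tested. The adjacent gene CG32104 had r = 0.77, and its mean was 5.19 ± 0.17 (SD) on the 73 low-level arrays and 5.61 ± 0.19 on the 77 high-level arrays. CG14137, 118 genes away, had r = 0.75 and the largest difference of the 10, from 3.98 ± 0.42 to 5.03 ± 0.64. Tsen54, a subunit of the tRNA splicing endonuclease 13 genes away, had r = 0.73 and rose from 4.53 to 5.22 between the levels.

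The rest followed with Sugb at r = 0.71 (103 genes away), Sema5c, a semaphorin, at 0.68 (39), CG12520 at 0.66 (58), Gcat, an enzyme of threonine breakdown, at 0.66 (81), and ssp at 0.61 (36). CG32087, 91 genes away, and CG7368, 119 genes away, ran the other way with r = -0.68 and r = -0.57, so that the neighbourhood did not move in a common direction. CG12520 lies after Obp69a in the coordinate order of the table, and the other 9 lie before it. Of 13409 named probe sets with a place in the table, 16 had an absolute r of at least 0.5 with Obp69a, and all 16 were on 3L, which holds 19.7% of these probe sets.

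Large differences between the levels were more frequent on 3L near Obp69a. Among probe sets more than 50 and up to 100 genes from Obp69a, 7 of 99 differed by at least 0.5 between the levels, which is 7.07%, and among those more than 100 and up to 200 genes away 7 of 191 did (3.66%). Within 50 genes there were 2 of 92 (2.17%). Beyond 200 genes on 3L the share was between 1.02% and 1.27%, and on the other arms it was 0.343%.

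**Figure D3:**
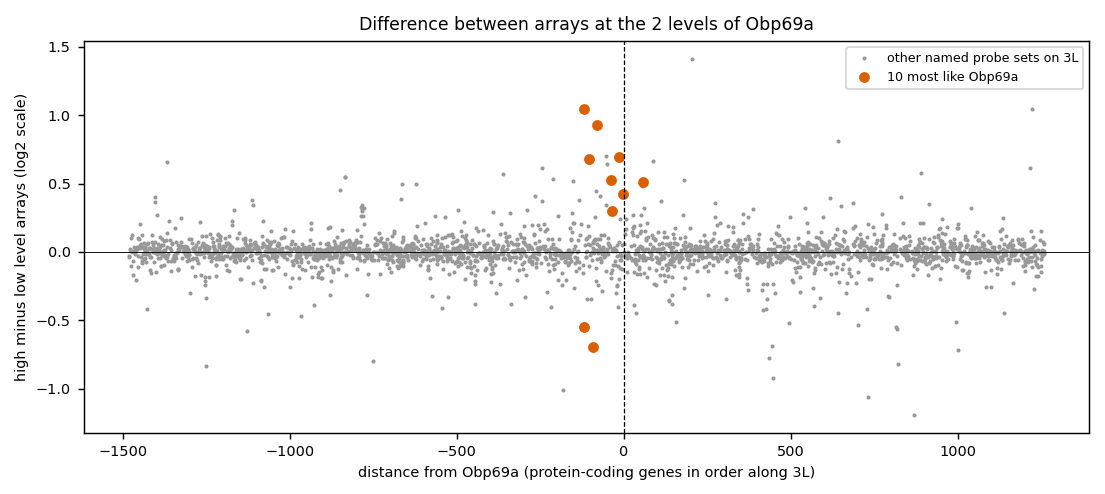
Difference between the 77 high-level and 73 low-level arrays of Obp69a (vertical axis, log2 scale) for named probe sets on 3L, by distance from Obp69a counted in protein-coding genes (horizontal axis). Orange points are the 10 genes most like Obp69a, which lie within 119 genes of it, with 8 above 0 and 2 below.

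Neighbours were counted the same way for the other members. Obp69a's neighbours set the bound of 120 genes, so only the counts of the other genes are informative. Obp8a had 6 of its 10 most alike genes within 120 genes, namely Nost, Hk, nej, CG12075, CG12056 and c11.1, with absolute r from 0.50 to 0.70. Obp50e had 5, with absolute r from 0.40 to 0.47, and Obp19a had 5, among them its neighbour Obp19b. Each of the other 43 genes had at most 3. Obp8a, Obp50e and Obp19a were singled out after their values were seen, and the same count over all genes was not taken.

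No other member of the family differed by 0.5 or more between the levels of Obp69a. The largest differences were in Obp83g, at 5.44 ± 1.12 (SD) on the low-level arrays and 4.99 ± 1.04 on the high-level arrays, and in Obp83cd at 4.15 and 3.93. Within a level, however, Obp69a varied together with other members, and the partners were not alike. On the 73 low-level arrays Obp69a followed Obp83b with r = 0.71 and rho = 0.72 (permutation p = 1e-05, adjusted 0.00023), and Obp28a with r = 0.47 and rho = 0.43 (permutation p = 4e-05, adjusted 0.00061). On the 77 high-level arrays these r were 0.16 and -0.00. There Obp69a ran against Obp99c with r = -0.59 and rho = -0.58, and against Obp18a with r = -0.51 and rho = -0.50, and it followed Obp22a with r = 0.50 and rho = 0.50. Each of these 3 had a permutation p of 1e-05, adjusted 0.00023. On the low-level arrays the same 3 r were 0.20, 0.21 and -0.16. Without the 2 arrays farthest from the median of Obp69a, the r of these 5 relations ranged in size from 0.41 to 0.68. Adjusted values cover 92 relations, of 46 members on both levels.

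The difference between the levels was tested by permuting the level labels of values scaled within each level. For Obp99c the r was 0.79 lower at the high level, a difference of -0.79 (permutation p = 1e-05, adjusted 0.00046 over 46 members, 2-sided). The difference was -0.72 for Obp18a (adjusted permutation p = 0.00077), 0.66 for Obp22a (0.0008) and -0.55 for Obp83b (0.00069). This test was chosen after the r within the levels had been seen, and the levels were cut from Obp69a's own values. Its p therefore describe these arrays and are no independent support. RNA quality moved with Obp69a at the high level, and the low-level value did not pass after adjustment. The difference of 3' and 5' control probe sets of Act5C, which grows as RNA is degraded, correlated with Obp69a with r = 0.46 at the high level and -0.24 at the low level (rho = 0.52 and -0.18; permutation p = 2e-05 and 0.0398, adjusted over 10 relations 0.0002 and 0.161). A mean over 6 antennal marker genes correlated with it with r = -0.02 and 0.48 (rho = -0.02 and 0.46; permutation p = 0.83 and 6e-05, adjusted 0.83 and 0.0006). Their part in these relations was not tested.

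Across all 150 arrays and the 46 other members, there were 1035 pairs of genes with a median r of 0.0493. An r of 0.5 or more was reached by 56 pairs and one of -0.5 or less by 3 pairs. The same shares over all pairs of probe sets were not taken, so these counts do not set the family apart. Of the 56 pairs, 7 joined genes of the same division. The median r was 0.143 over the 67 pairs within a division and 0.0452 over the other pairs. By division, r ran from -0.397 to 0.448 in division 56 with a median of 0.137, from 0.0219 to 0.812 in division 57 with a median of 0.341, from -0.0529 to 0.807 in division 83, from -0.148 to 0.708 in division 19, and from -0.0289 to 0.599 in division 99. In divisions 58 and 50, whose genes are dim, the medians were 0.209 and 0.0213. Sharing a neighbourhood therefore went with high r for some pairs and with none for others.

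The closest pairs were Obp19d with Obp57c (r = 0.81, rho = 0.80), Obp57c with its neighbour Obp57b (0.81, 0.78), Obp83g with its neighbour Obp83cd (0.81, 0.71), and Obp57a with its neighbour Obp57b (0.77, 0.79). They were followed by Obp99c with Obp18a (r = 0.75, rho = 0.73), Obp22a with Obp56i (0.75, 0.75), Obp56a with Obp57c (0.72, 0.71), Obp19d with its neighbour Obp19b (0.71, 0.70), the antennal genes Obp83b and Obp28a (0.71, 0.68), and Obp57c with Obp28a (0.70, 0.72). The most opposed pairs were Obp22a with Obp18a (r = -0.69, rho = -0.69), Obp99c with Obp22a (-0.61, -0.61) and Obp56f with Obp18a (-0.54, -0.59). Each of these 13 had a permutation p of 1e-05 for r, the smallest that 100000 resamples can give, and 8e-05 after adjustment over the 1035 pairs. Without the 2 arrays farthest from the median of the first gene, the r of the 10 closest pairs ran from 0.69 to 0.81.

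**Figure D4:**
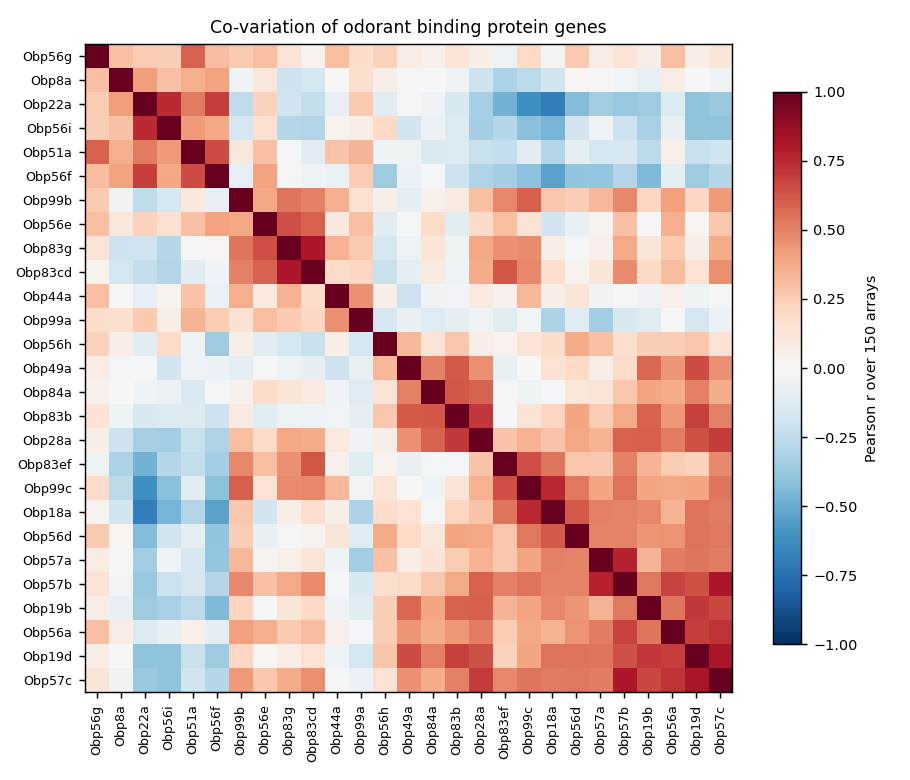
Pearson r over 150 arrays (colour, from -1 to 1) between the 27 members of mean signal over 3.7 other than Obp69a, ordered by hierarchical clustering on both axes. Seminal fluid genes such as Obp22a and Obp56f form a block at the upper left, and Obp19d, Obp57c and other genes a block at the lower right, with r of -0.69 between Obp22a and Obp18a.

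Median r was higher among members with the same known site than between sites. Within the male reproductive list the 21 pairs had a median r of 0.361, from 0.112 to 0.746, and within the antennal list, without Obp69a, the 21 pairs had a median of 0.395, from 0.0289 to 0.706. Between the lists the 49 pairs had a median of -0.102, from -0.436 to 0.264. The lists are small and share arrays, so these are descriptions. The 3' minus 5' difference of Act5C also separated them. It had r from 0.06 to 0.66 with the members of the male reproductive list. With the antennal members of mean over 3.7, other than Obp69a, its r ran from -0.65 to -0.21. Its part in these medians was not tested.

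Members also varied with tissue markers. The mean over 12 accessory gland genes correlated with Obp56f with r = 0.84 (rho = 0.84), with Obp22a with r = 0.78 (rho = 0.80), with Obp51a with r = 0.71 (rho = 0.69) and with Obp56e with r = 0.61 (rho = 0.63). The mean over 6 antennal genes, lush and Os-C among them, correlated with Obp28a with r = 0.79 (rho = 0.78), with Obp83b with r = 0.78 (rho = 0.76), and with Obp19d with r = 0.73 (rho = 0.73). Obp83g followed the mean over 13 muscle genes, with r = 0.87 and rho = 0.86. Each had a permutation p of 1e-05 and 8e-05 after adjustment over 1656 relations, and the r within arrays of high and of low MtnB, the metallothionein gene described below, lay between 0.55 and 0.90 for these 8. The muscle mean also correlated with Obp83cd (r = 0.67, rho = 0.65), Obp56e (0.63, 0.57) and Obp99b (0.51, 0.52), at the same permutation p and adjusted value. Obp56e thus followed both means. On arrays of low MtnB its r was 0.67 with muscle and 0.55 with accessory gland, and on arrays of high MtnB 0.45 and 0.57. Gut and testis means also had relations of this size. The gut digestive enzyme mean followed Obp18a (r = 0.57, rho = 0.61) and Obp56d (0.51, 0.58). It ran against Obp22a (-0.46, -0.46) and Obp56f (-0.45, -0.46). The testis mean followed Obp56i (0.60, 0.60) and Obp22a (0.56, 0.60), and ran against Obp57c (-0.60, -0.57) and Obp18a (-0.59, -0.62). Each had a permutation p of 1e-05, adjusted 8e-05.

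Single chemosensory genes were also compared with the members. Obp19b followed CheA75a, of a family of taste hair proteins, with r = 0.88 (rho = 0.87), and Obp19d followed the antennal gene OS9 with r = 0.83 (rho = 0.85). Obp83b followed 2 genes of that antennal mean, Os-C with r = 0.82 (rho = 0.81) and lush with r = 0.74 (rho = 0.74). Obp99c followed EbpIII with r = 0.75 (rho = 0.70). EbpIII and EbpII are both named for the ejaculatory bulb, but they did not share partners. Obp22a had r = 0.44 (rho = 0.38) with EbpII and r = -0.43 (rho = -0.44) with EbpIII. Each had the same permutation p of 1e-05 and the same adjusted value of 8e-05.

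Many members also followed the 3' minus 5' difference of Act5C. The correlations were -0.71 for Obp18a (rho = -0.72), -0.65 for Obp19d (rho = -0.63), -0.64 for Obp57c (rho = -0.61), -0.60 for Obp99c (rho = -0.56), 0.66 for Obp22a (rho = 0.69) and 0.59 for Obp56f (rho = 0.63), each with a permutation p of 1e-05. With that difference removed, 29 pairs had an r of 0.5 or more in place of 56. The r of the opposed pairs became -0.42, -0.35 and -0.21, while Obp83g with Obp83cd stayed at 0.81 and Obp57c with Obp57b at 0.75. Removing it was an alternative chosen after seeing the data.

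The last comparison sets apart arrays by MtnB, a metallothionein gene that encodes a small metal-binding protein. MtnB was above 10 on 76 arrays, with a mean of 12.82 ± 0.49 (SD), and below 10 on 74, with a mean of 6.45 ± 1.02, and no array lay between 8.99 and 11.02. Of the 76 arrays above 10, 40 were labelled lead and 36 control, and of the 74 below, 35 and 39, so the sides are not the study's groups. In 30 lines the 2 arrays lay on different sides.

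In the male reproductive list 0 of 7 members were higher and 3 lower with MtnB above 10, and in the antennal list 1 of 8 was higher and 0 lower. Over all probe sets 11.7% were higher and 17.0% lower at the same threshold, and the lists are small. Of the 47 genes, 8 passed an adjusted p of 0.05 in limma, which is 17.0%, against 28.7% of all 18769 probe sets. Without adjustment 11 of 47 had a p under 0.05 (23.4%, against 38.3%). Among genes of mean signal over 5, 7 of 23 passed, which is 30.4%, against 41.2% of probe sets in that range. Obp56d, Obp18a, Obp99c and Obp44a were higher on the arrays with MtnB above 10, and Obp56e, Obp56f, Obp22a and Obp99d were lower. The median difference was -0.01 over the 47 genes and -0.02 over all probe sets.

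Obp56e showed the largest difference. Its lowest, median and highest values were 5.68, 7.49 and 9.56 on the 74 arrays below 10, and 5.00, 6.68 and 8.84 on the 76 above. The ranges overlapped, and 14 of the 76 arrays above 10 exceeded the median of the arrays below. The difference was -0.88 ± 0.14 (SE, 95% interval -1.17 to -0.60, adjusted p = 2.51e-07 in limma). Over the 13 alternatives the adjusted p ran from 3.55e-09 to 0.0969, and only among lines numbered above 200 did it miss the threshold, with a difference of -0.85.

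The other seminal fluid genes that were lower were Obp56f and Obp22a. Obp56f had a lowest, median and highest value of 7.44, 8.77 and 9.71 below 10 and of 7.45, 8.45 and 10.07 above, a difference of -0.31 ± 0.08 (SE, adjusted p = 0.00206 in limma). Obp22a had 6.97, 8.53 and 9.40 below and 7.27, 8.16 and 9.32 above, a difference of -0.29 ± 0.07 (adjusted p = 0.00121 in limma). Both spans overlapped widely, with 27 and 23 of the 76 arrays above the median of the other side. Obp56f and Obp22a missed the threshold with line as a block beside diet, at -0.24 each (adjusted p = 0.356 and 0.174 in limma). Within the arrays labelled control Obp22a differed by -0.55 (adjusted p = 1.99e-05 in limma) and within those labelled lead by -0.03 (0.891). For Obp56f these were -0.43 (0.00321) and -0.20 (0.341). The interaction with diet was 0.51 for Obp22a and 0.23 for Obp56f, and neither passed (adjusted p = 0.397 and 0.609 in limma). The remaining members of the male reproductive list, Obp56g, Obp51a, Obp56i and Obp8a, did not pass, with differences from -0.10 to 0.04. Obp99d, a dim gene, differed by -0.06 ± 0.03 (adjusted p = 0.0474) and did not pass with the line block (-0.01, adjusted p = 0.922 in limma).

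Obp56d led the genes that were higher. Its lowest, median and highest values were 7.87, 9.65 and 11.45 below 10 and 8.36, 10.19 and 11.58 above, with 60 of the 76 arrays above the median of the other side. The difference was 0.52 ± 0.11 (SE, interval 0.31 to 0.73, adjusted p = 4.8e-05 in limma), and 0.64 with the line block (adjusted p = 0.0054). Within the arrays labelled control it was 0.68 (adjusted p = 0.00107 in limma), and within those labelled lead 0.37, which did not pass (0.0673). The interaction with diet was -0.31 and did not pass (adjusted p = 0.591 in limma). Obp44a ran from 10.92 through 11.80 to 12.28 below and from 11.43 through 11.93 to 12.33 above, a difference of 0.17 ± 0.04 (adjusted p = 0.000108 in limma), and 0.22 with the line block (adjusted p = 0.00288). Its spread was small, so a small difference passed.

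Obp18a ran from 7.10 through 7.88 to 9.15 below and from 7.06 through 8.29 to 9.01 above, a difference of 0.31 ± 0.07 (SE, adjusted p = 0.000104 in limma). Obp99c ran from 9.76 through 11.12 to 12.45 below and from 9.56 through 11.51 to 12.37 above, a difference of 0.30 ± 0.10 (adjusted p = 0.0134 in limma). With the line block their differences were 0.27 and 0.31, at adjusted p in limma of 0.0881 and 0.19. Obp18a differed by 0.42 within the arrays labelled control (adjusted p = 0.000484 in limma) and by 0.21 within those labelled lead (0.138). For Obp99c these were 0.60 (0.000574) and -0.00 ± 0.13. The interaction with diet was -0.20 for Obp18a and -0.60 for Obp99c, and neither passed (adjusted p = 0.581 and 0.499 in limma).

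Obp83g, whose distribution was skewed, missed the threshold with -0.43 ± 0.18 (SE, adjusted p = 0.0534 in limma). Its highest array was at 8.33 below 10 and at 7.26 above, while the medians were 4.96 and 4.87, so the difference lay in the upper tail. It passed in 3 of 12 alternatives, namely array weights (-0.41, adjusted p = 0.0353 in limma), the arrays labelled lead alone (-0.75, 0.0327) and the Act5C covariate (-0.52, 0.0196). Within the arrays labelled control it was -0.12 (adjusted p = 0.777 in limma). Obp69a differed by 0.06 ± 0.21 (adjusted p = 0.876 in limma). Of its 77 high-level arrays 40 had MtnB above 10, and of its 73 low-level arrays 36 did (Fisher's exact test, 2-sided, p = 0.87).

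**Figure D5:**
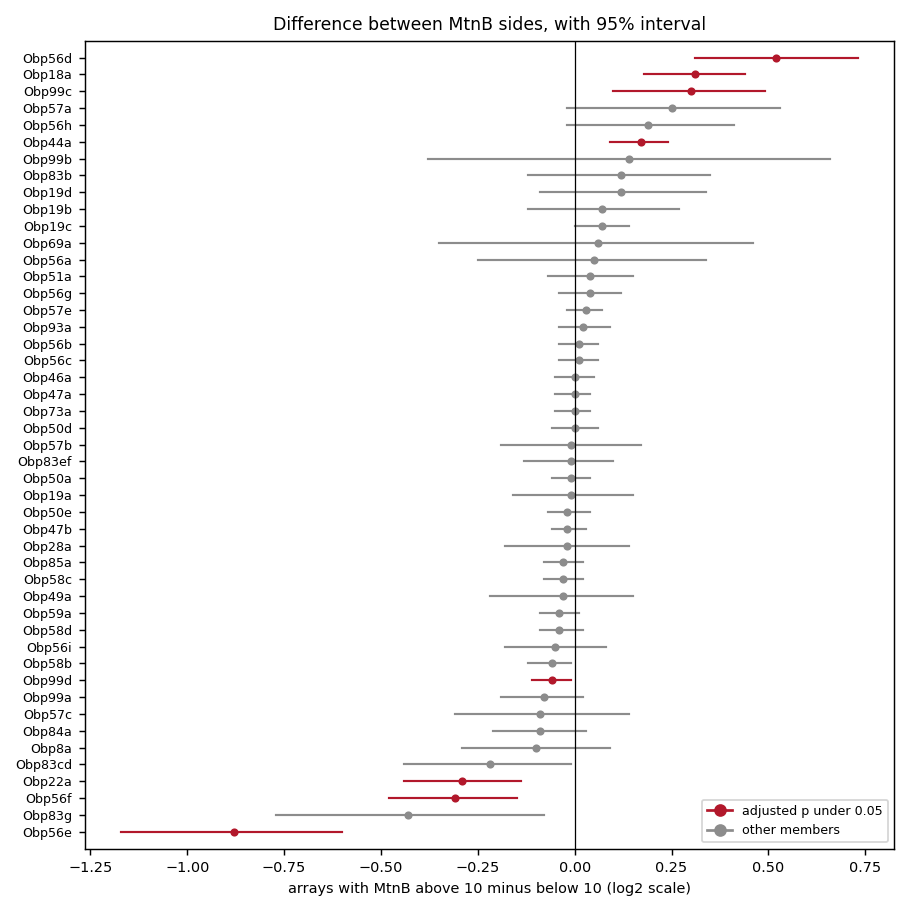
Difference between the 76 arrays with MtnB above 10 and the 74 below (horizontal axis, log2 scale) for each of the 47 genes (vertical axis), as a point with its 95% interval from limma. Red marks the 8 genes of adjusted p under 0.05, from Obp56e at -0.88 to Obp56d at 0.52.

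For the 3 members of largest difference, the genes of highest r within both MtnB sides were sought. For Obp56e the closest were the accessory gland genes Acp76A, a serpin, Acp62F, a protease inhibitor, and Acp53C14c, with r from 0.70 to 0.76 on both sides. Acp76A, Acp62F and Acp53C14c were also lower with MtnB above 10, by -0.44, -0.23 and -0.56. For Obp56d they were CG2604, EbpIII and CG13833, with r from 0.64 to 0.73. For Obp83g they were CG8927, Vajk2 and Cpr97Ea, the last of a cuticle protein family, with r from 0.92 to 0.97. These r rank the genes and are descriptions.

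Tissue markers and RNA quality moved with the MtnB sides. Of 15 gut digestive enzyme genes 12 were higher and 0 lower above 10, and their mean was 8.69 (range 6.68 to 9.73) below and 9.32 (7.84 to 10.07) above. Of 13 muscle genes 0 were higher and 11 lower, with means of 10.80 (9.20 to 12.09) and 10.37 (8.76 to 11.84). Of 12 accessory gland genes 0 were higher and 6 lower, with means of 11.28 (10.32 to 11.86) and 11.08 (10.27 to 11.78). Of the 6 antennal genes, 0 passed in either direction, and their mean was 4.60 (3.95 to 5.18) and 4.61 (4.05 to 5.36). Of 26 other chemosensory genes, 3 were higher, Snmp2, EbpIII and CheB42b, and 1 was lower, Phk-3. For all these counts, the shares over all probe sets were 11.7% higher and 17.0% lower. The 3' minus 5' difference of Act5C was 2.87 ± 0.631 (SD) below and 2.60 ± 0.503 above.

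With the Act5C difference as a covariate, an alternative chosen after seeing the data, 10 of the 47 genes passed, and 6 of these were among the 8. In that fit 4849 of all 18769 probe sets passed, in place of 5395. The 4 genes added were Obp57c at -0.30 (adjusted p = 0.00375 in limma), Obp83cd at -0.33 (0.0145), Obp83g at -0.52 (0.0196) and Obp59a at -0.07 (0.0263). Obp56e then differed by -0.90 (adjusted p = 3.26e-07 in limma), Obp56d by 0.37 (0.00185), Obp44a by 0.18 (2.74e-05), Obp18a by 0.18 (0.00429) and Obp22a by -0.15 (0.0453). Obp56f at -0.18 (adjusted p = 0.0592 in limma) and Obp99c at 0.13 (0.247) no longer passed. The part of the gut, muscle and accessory gland genes in these differences was not tested. Whether the MtnB difference depended on labelled diet was tested as an interaction. It passed for 0 of the 47 genes and for 0.0% of all probe sets in limma, with 8 of 47 (17.0%) against 8.76% without adjustment, and the smallest adjusted p was 0.227, for Obp56i.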

How the data were processed

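The authors' deposited table holds 1 value per probe set and array. The values ran from 1.93 to 14.04 and were taken as log2 values from that range; the sources used here give no log base, summarisation or genome build of the array, and no coordinates or sequences are printed. The deposited log2 values were used without further normalization. All 150 columns matched a sample title, and 0 columns were unmapped. Of 18952 probe sets, 183 were array controls. The other 18769 entered every fit but the alternative filtered at the median signal, which kept 9384. Of these, 13646 carry a single symbol, and 13543 were found in the RefSeq table (Release 6 plus ISO1 MT).

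limma 3.58.1 in R 4.3.3 gave the adjusted p of the fits, by Benjamini-Hochberg over the probe sets of the fit. Permutation p were adjusted by Benjamini-Hochberg in Python over the pairs or relations named beside them. Diet was fitted with line as a block, since by the labels each inbred line was reared on both foods. The check of that pairing gave a mean own-line correlation of 0.0668 against 0.0005. MtnB sides were compared over all arrays without a block. Permutation tests used 100000 resamples with scipy 1.17.1 and numpy 2.4.6 in Python 3.11.15. On simulated data for lead minus control the fit recovered 82% of changes of 0.25 and 98% of changes of 0.5, and for the MtnB sides 74% and 98%. The simulated probe sets varied independently, and 50 changes of each size were placed at random among all probe sets, whose median SD was 0.219. Variation shared between genes was left out, and recovery in members of larger SD was not measured, so these shares do not apply to them.

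The members, lists and tests were chosen with earlier results of these data known. The named genes are the 6 highest and 6 lowest means, the 8 largest SDs, Obp69a with its 10 most alike genes, members past the MtnB threshold, the 3 smallest p per direction for diet, the 5 smallest for line, the 10 closest pairs, and 3 partners of the 3 largest MtnB differences. All members are also given by division. The opposed pairs, the relations with marker and chemosensory genes, the comparison of r between Obp69a levels and the 120-gene count were added after seeing values. Relations with a marker or chemosensory gene numbered 1656, and only members of mean over 3.7 are described there. Alternatives were quantile normalization, median centring, a signal filter, array weights, leaving out 8 arrays of low correlation or single arrays, line number series, each labelled diet alone, the block and a stricter threshold of 0.01. P-values measure the spread between these pools.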

Additional observations from a re-analysis of the deposited data

How the results depend on the processing

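The count of odorant binding protein genes past the threshold between diets was 0 under all 10 alternatives, including the fit with no replicate block, and the count for the line effect was 0 under quantile normalization and median centring. The count between MtnB sides was 8. It fell to 3 with line as a replicate block beside labelled diet, which kept Obp56d, Obp56e and Obp44a. Within the arrays labelled lead it was also 3, namely Obp56e and Obp44a of the 8, and Obp83g, which was not among them. The count fell to 0 among the 18 lines numbered above 200, where fewer arrays were tested. Across all probe sets, these settings called 1645, 2326 and 455 in place of 5395, and array weights called 10 of the 47 genes and 6713 of all. The stricter threshold of 0.01 called 6 of the 47 and 3616 of all. The causes were not tested. Obp99c turned to -0.00 within the arrays labelled lead, and the diet difference of Obp59a turned to -0.02 in lines above 200; neither passed there. Leaving out any single array moved the difference of Obp56e between -0.91 and -0.86 and that of Obp56d between 0.50 and 0.55. Obp69a split into 75 and 75 arrays under quantile normalization and median centring, with 148 arrays on the same side as before and 38 lines with matching levels. With the Act5C difference removed, 29 pairs reached an r of 0.5 in place of 56. Dim genes limit what can be seen: 20 of the 47 lay under 4, where a signal of a silent gene cannot be told from a low level.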
